A study of Homo sapiens with 7 samples.

Results

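MiR-10a, miR-10b and miR-196b are microRNAs encoded within the human HOX gene clusters. They were chosen by the names of their assays, and make up 3 of the 377 human microRNAs on the cards of this study. Total RNA from 3 oligometastatic L1-R2 lines (numbered 4T, 3T and 8T) and 4 polymetastatic L1Mic-R2 lines (numbered 2T, 3T, 7T and 8T) was measured by quantitative PCR, with 30 ng of RNA and 1 TaqMan Human MicroRNA Array A card per line. All 7 lines descend from MDA-MB-435-GFP, an established human tumor line that carries green fluorescent protein and whose origin has been traced to melanoma. According to the methods of the study, each was grown from the lung of another athymic female mouse, the L1-R2 lines after tail vein injection of L1-R1 cells, which came from lung macrometastases, and the L1Mic-R2 lines after injection of L1Mic-R1 cells, taken from lung tissue of that same mouse without macrometastases. Tumor cells were selected with G418, and the labels name no other treatment. Both groups stem from 1 parental line and a single pair of first-round lines, so that p-values measure the spread between lines of that pair.

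HOX genes encode transcription factors that give cells their position along the body axis, and they lie in clusters on different chromosomes. Small RNA genes of the miR-10 and miR-196 families sit between them, are often transcribed together with their HOX neighbours, and repress HOX messages in turn. MiR-10b is best known in cancer: in breast tumor cells it is induced by the transcription factor TWIST1, represses HOXD10 and promotes invasion and metastasis. MiR-196b is known for its activity in leukemias with high HOXA expression, and miR-10a for its joint expression with HOXB genes.

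Of the 3 members, 2 were matched by name to a mature sequence in RefSeq (GRCh38.p14). They are shown with the seed, bases 2 to 8 that pair with a target, in capitals, because the seeds decide which of these RNAs could repress the same messages. MiR-196a, which is not on the card, and the relatives of miR-10 that are on it follow for comparison.
miR-10a: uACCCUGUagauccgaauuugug
miR-196b: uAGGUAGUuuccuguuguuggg
miR-196a: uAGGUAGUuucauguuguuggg
miR-100: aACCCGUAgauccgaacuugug
miR-99a: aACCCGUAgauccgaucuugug
miR-99b: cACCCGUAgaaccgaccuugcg
miR-125b: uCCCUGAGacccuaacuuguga
miR-125a-5p: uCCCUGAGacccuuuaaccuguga
MiR-10a and miR-196b have different seeds, and their longest shared stretch is 5 bases. MiR-196b shares its seed with miR-196a, and both agree in 21 of 22 positions, the exception being C12A, counted from the 5′ end with the base of miR-196b first. None of these relatives has the seed of miR-10a, although miR-10a shares a run of 11 bases (guagauccgaa) with miR-100 and of 10 (guagauccga) with miR-99a, shifted by 1 position. MiR-10a (chr17:48579904-48579926, minus strand) lies within the span of HOXB3, between HOXB4 and HOXB5. MiR-196b (chr7:27169528-27169549, minus strand) lies between HOXA9 and HOXA10, within the spans of the readthrough gene HOXA10-HOXA9 and of HOXA10-AS. The gene of miR-10b is on chromosome 2 between HOXD8 and HOXD4. The other microRNA gene of a HOX cluster on the card is MIR615 on chromosome 12, within the spans of HOXC4 and HOXC5.

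The deposited value is the threshold cycle (Ct), which counts how many rounds of PCR a well needed to reach a fixed fluorescence. A lower Ct stands for more RNA, and differences between the groups are given as log2, positive where L1Mic-R2 had the lower Ct. An Undetermined well is set to 40 in the files, and a microRNA with a raw Ct below 38 was called detected. Between 172 and 184 microRNAs were detected per L1-R2 line and between 160 and 172 per L1Mic-R2 line. Ct values were compared raw and after quantile normalization across the 7 cards, which the methods of the study name for its clinical samples. In the sample numbers of the files the L1-R2 lines are 1 to 3 and the L1Mic-R2 lines 4 to 7, so that group and numbering cannot be told apart. U6, the only RNA with repeated wells, had an SD of 0.027 to 0.098 cycles over its 4 wells per card at a Ct near 16.

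MiR-10a and miR-196b were detected in all 7 lines, miR-10b in 2, and both of those were L1-R2 lines. Neither miR-10a nor miR-196b was shown to differ between the groups beyond the spread of the lines, and miR-10b was not detected often enough to enter the test across microRNAs. So 2 of the 3 members passed the filter, which asked for a Ct below 38 in at least 3 lines, as did 181 of the 377 microRNAs. Of these 2, 0 had an adjusted p under 0.05 (limma, Benjamini-Hochberg) and 0 an unadjusted p under 0.05. Over all microRNAs tested, 4.97% were called at the adjusted threshold (3.31% with more RNA and 1.66% with less in L1Mic-R2) and 19.3% at the unadjusted one, and with so few members no share can be set against these.

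**Figure D1:**
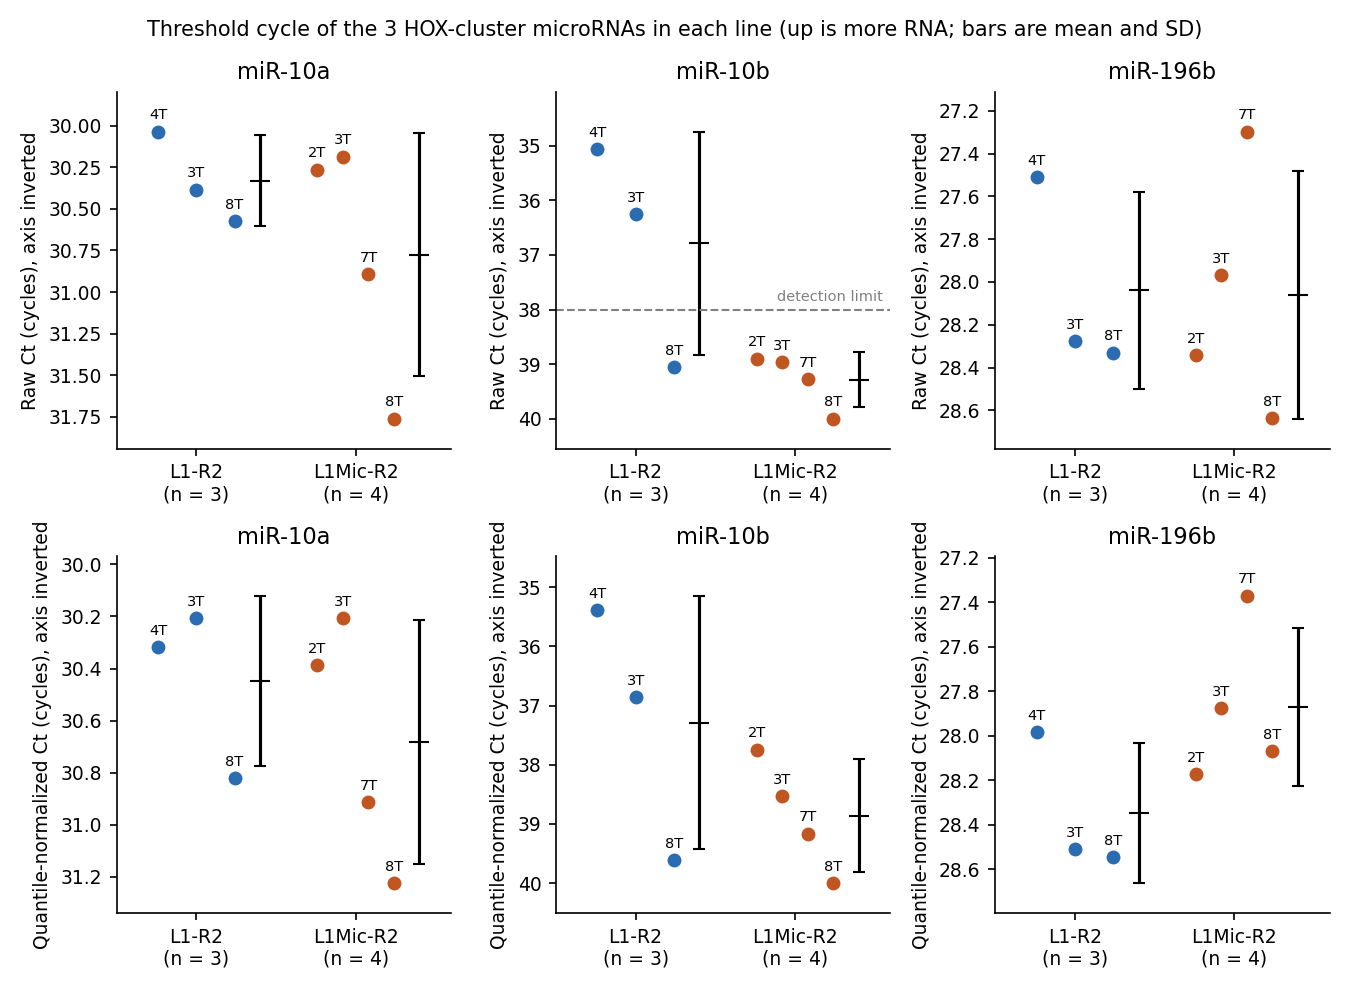
Raw (top) and quantile-normalized (bottom) Ct in cycles of miR-10a, miR-10b and miR-196b, with a point for each line and the mean and SD of each group beside it. Axes are inverted so that more RNA is higher. The raw Ct of miR-10b is below the detection limit of 38 in 4T and 3T of L1-R2 and in no other line, and for all 3 members the groups overlap.

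MiR-10b, the metastasis promoter among the 3, was found in 2 of the 3 L1-R2 lines and in none of the 4 L1Mic-R2 lines. Its raw Ct was 35.06 in L1-R2 line 4T, 36.26 in line 3T and 39.05 in line 8T. In L1Mic-R2 it was 38.90 in line 2T, 38.96 in line 3T and 39.28 in line 7T, and line 8T was Undetermined. Lines 4T and 3T of L1-R2 therefore stood 3.84 and 2.65 cycles below the lowest L1Mic-R2 line, whereas L1-R2 line 8T lay among the L1Mic-R2 lines and the groups overlapped. L1-R2 line 4T also had the lowest raw Ct of U6 (15.97), RNU44 (23.67) and RNU48 (18.81), and the most microRNAs detected (184). Fisher's exact test of the lines in which miR-10b was detected gave a two-sided p of 0.143, the smallest that 2 detected lines among 7 allow. Of all 377 microRNAs, 9 (2.39%), miR-10b among them, were detected in at least 2 L1-R2 lines and no L1Mic-R2 line, and 4 (1.06%) showed the opposite pattern, in at least 2 L1Mic-R2 lines and no L1-R2 line.

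On the raw scale miR-10b averaged 36.79 ± 2.05 cycles (SD, n = 3) among oligometastatic and 39.29 ± 0.50 (SD, n = 4) among polymetastatic lines, with an Undetermined well counted as 40. This log2 difference of -2.50 gave an exact permutation p of 0.0857 (two-sided, on the means). The median raw log2 difference of all microRNAs tested was -0.25, and relative to that median miR-10b was at -2.25. After quantile normalization the means were 37.29 ± 2.14 (SD, n = 3) and 38.86 ± 0.96 (SD, n = 4), a log2 difference of -1.57 (exact permutation p = 0.286). Normalization moved single late values by over 1 cycle, since the raw 38.90 of L1Mic-R2 line 2T became 37.74. In a limma fit without the detection filter the 95% interval of the log2 difference ran from -4.46 to 1.32 (adjusted p = 0.834), which spans changes in both directions. The SD of 2.05 cycles within L1-R2 was the widest of the 3 members, with line 8T later than the other two. Without 8T the normalized log2 difference was -2.82, and without 4T it was -0.63.

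MiR-10a, the HOXB-cluster member, was present at a middle level, with a raw range of 1.72 cycles and a normalized range of 1.02 cycles over the lines. Among L1-R2 lines the raw Ct of miR-10a was 30.04 (4T), 30.38 (3T) and 30.57 (8T). Among L1Mic-R2 lines it was 30.26 (2T), 30.19 (3T), 30.89 (7T) and 31.76 (8T). The L1-R2 values lay within the range of the L1Mic-R2 values except for line 4T, and the highest Ct was that of L1Mic-R2 line 8T. Normalized, these became 30.32 (4T), 30.21 (3T) and 30.82 (8T) against 30.39 (2T), 30.21 (3T), 30.91 (7T) and 31.22 (8T). The lowest line of each group, both numbered 3T, then had the same value. The normalized means were 30.45 ± 0.33 (SD, n = 3) and 30.68 ± 0.47 (SD, n = 4), which is a log2 difference of -0.23 with a standard error of 0.31 (limma, adjusted p = 0.721). Expressed as a ratio, the level in L1Mic-R2 was 0.850 of that in L1-R2, with a 95% interval from 0.502 to 1.44. By exact permutation of the lines, p was 0.486.

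MiR-196b, the HOXA-cluster member, had the lowest Ct of the 3. Its raw values were 27.51 (4T), 28.28 (3T) and 28.33 (8T) for L1-R2. For L1Mic-R2 they were 28.34 (2T), 27.97 (3T), 27.30 (7T) and 28.64 (8T). The groups overlapped fully on this scale, with L1Mic-R2 lines at both ends. Normalized, they became 27.98 (4T), 28.51 (3T) and 28.55 (8T) against 28.17 (2T), 27.88 (3T), 27.37 (7T) and 28.07 (8T). L1-R2 lines 3T and 8T then had a higher Ct than every L1Mic-R2 line, and 4T lay among the latter. The means were 28.35 ± 0.31 (SD, n = 3) and 27.87 ± 0.36 (SD, n = 4), a log2 difference of 0.47 (limma, standard error 0.26, adjusted p = 0.392), or a ratio of 1.39 with a 95% interval from 0.890 to 2.17. Exact permutation gave p = 0.143, where 0.0286 is the smallest p that 3 lines against 4 allow. For raw Ct the log2 difference was -0.022, on a scale where the median of all microRNAs tested was -0.25. Relative to that median miR-196b was at 0.22, and after quantile normalization at 0.42.

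Placed in order of raw Ct, some neighbouring lines lay closer together than repeated wells of U6, and others did not. For miR-10a the first 5 lines, from L1-R2 line 4T to L1-R2 line 8T, followed each other in steps of 0.079 to 0.19 cycles, less than the widest range of the U6 wells on a card (0.21). L1Mic-R2 line 8T came last, 0.87 cycles after 7T. For miR-196b, 7T of L1Mic-R2 came first and 4T of L1-R2 followed 0.21 cycles later. The widest step, 0.46 cycles, came after 4T, and the next lines were 0.31, 0.054, 0.012 and 0.29 cycles apart. For miR-10b the steps of 1.19 and 2.65 cycles set L1-R2 lines 4T and 3T apart from each other and from the rest, whose steps were 0.059, 0.090 and 0.22 cycles up to the Undetermined line. No card was repeated, and U6 gives the error of wells on a card at an early Ct, not that of the members.

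The spread of the 2 members detected everywhere was close to that of a typical microRNA in these lines. Over the 7 lines the SD of the normalized Ct was 0.40 cycles for both miR-10a and miR-196b, against a median of 0.43 for the 135 microRNAs detected in all 7 lines. Of these 135, 59 had a smaller SD than miR-10a and 57 a smaller SD than miR-196b. By raw Ct, which is not corrected for the efficiency of each assay, miR-196b ranked between 43 and 60 of the 377 microRNAs on each card and miR-10a between 80 and 91. The ranks thus moved by no more than 17 and 11 places.

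Since assays on the same card share its RNA input, the difference between a pair of members within a line does not contain a shift common to the card. Within L1-R2, miR-10b trailed miR-10a by 5.03 (4T), 5.87 (3T) and 8.48 (8T) raw cycles. Within L1Mic-R2 it did so by 8.64 (2T), 8.78 (3T) and 8.38 (7T), and by at least 8.24 in 8T, where miR-10b was Undetermined. In the 4 lines in which the miR-10b well crossed the threshold after cycle 38, the gap to miR-10a spanned 0.39 cycles, where miR-10a itself spanned 0.71 and miR-10b 0.37. That comparison was made after the values were seen. Mature miR-10a and miR-10b are known to be closely similar in sequence, and whether the late signal of the miR-10b assay comes from miR-10a was not tested.

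MiR-10a trailed miR-196b by 2.53 (4T), 2.11 (3T) and 2.24 (8T) raw cycles within L1-R2. Within L1Mic-R2 the delay was 1.92 (2T), 2.22 (3T), 3.60 (7T) and 3.12 (8T). The L1-R2 lines were close together, and the delay was longest in 7T and 8T of L1Mic-R2. With normalized values, the mean delay was 2.10 ± 0.35 (SD, n = 3) for L1-R2 against 2.81 ± 0.64 (SD, n = 4) for L1Mic-R2. This difference of 0.71 cycles had an exact permutation p of 0.257 (0.257 after Benjamini-Hochberg adjustment over the 3 pairs of members). For miR-10a minus miR-10b the difference between the groups was -1.34 cycles (exact permutation p = 0.257, adjusted p = 0.257), and for miR-10b minus miR-196b it was 2.04 cycles (p = 0.143, adjusted p = 0.257). For raw Ct the corresponding differences were -2.05 cycles (exact permutation p = 0.0857, adjusted p = 0.129) for miR-10a minus miR-10b and 2.47 cycles (p = 0.0571, adjusted p = 0.129) for miR-10b minus miR-196b. For miR-10a minus miR-196b the raw difference was 0.42 cycles (exact permutation p = 0.457, adjusted p = 0.457), against 0.71 normalized. Without L1-R2 line 4T the normalized differences that involve miR-10b shrank to -0.48 and 1.27 cycles, and without L1-R2 line 8T they grew to -2.39 and 3.19. Without L1Mic-R2 line 7T the normalized difference of miR-10a minus miR-196b was 0.46 cycles. With Ct limited to 38 before quantile normalization, miR-10b minus miR-196b differed by 1.74 cycles. Its exact permutation p was 0.0286, the smallest that 3 lines against 4 allow, and its adjusted p 0.0857. With that limit, the adjusted p was 0.214 for miR-10a minus miR-10b and 0.257 for miR-10a minus miR-196b. No pair of members was shown to differ in its change between the groups at an adjusted p under 0.05 on either scale or with that limit.

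**Figure D2:**
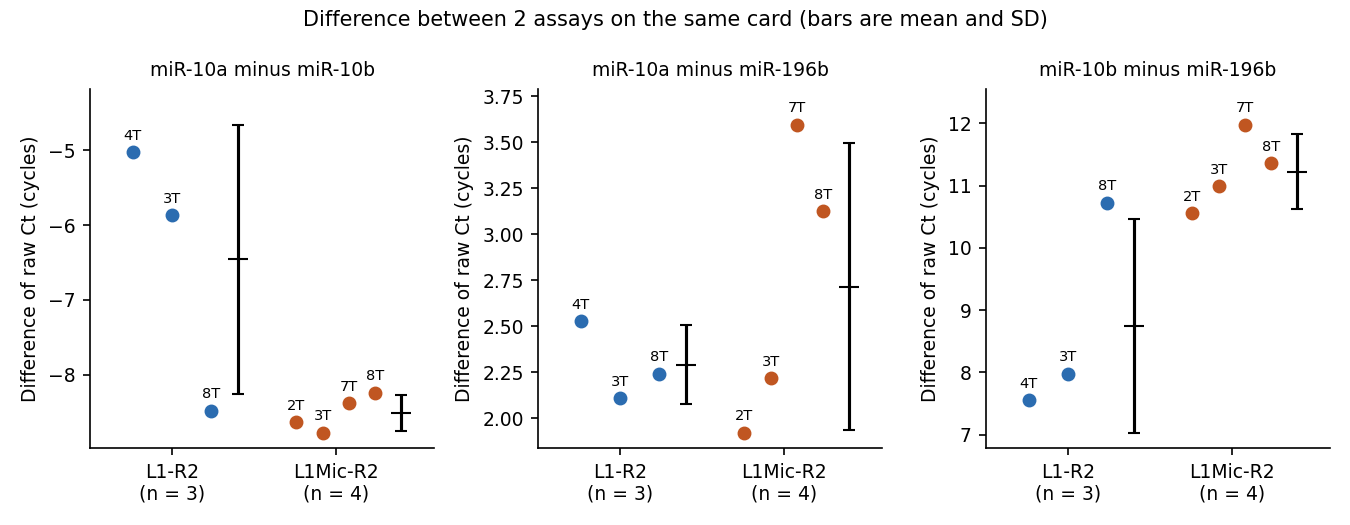
Difference of raw Ct in cycles between 2 assays on the same card, with a point for each line and the mean and SD of each group. MiR-10a minus miR-10b lies between -8.78 and -8.24 in 5 lines (in L1Mic-R2 line 8T miR-10b is Undetermined and set to 40) and at -5.03 and -5.87 in L1-R2 lines 4T and 3T.

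The pattern of miR-10a over the 7 lines was most like that of miR-21, a microRNA widely raised in tumors. After centering each microRNA on its own mean, the normalized Ct of both differed by 0.18 cycles on average, against a median of 0.47 over the 134 microRNAs compared. The next were miR-29b (0.23 cycles) and miR-500 (0.25 cycles). Their Pearson correlation with miR-10a was 0.45 and 0.53, against 0.87 for miR-21. They also varied less over the lines (SD 0.25 and 0.29 cycles, against 0.40 for miR-10a), which keeps such a distance small. MiR-21 had its lowest normalized Ct (27.88) in 3T of L1-R2, 1 of the 2 lines in which miR-10a was lowest, and its highest (29.55) in 8T of L1Mic-R2, as did miR-10a. The pattern of miR-196b was closest to those of miR-186 (0.16 cycles), miR-340 (0.18) and miR-339-3p (0.18), each of which had its lowest Ct in L1Mic-R2 line 7T. Between miR-10a and miR-196b the mean difference was 0.48 cycles, so that miR-196b came in place 73 of 134 for miR-10a. These distances rest on 7 lines with a single card each and describe them without a test. None of the 6 microRNAs differed between the groups at an adjusted p under 0.05 (limma, adjusted p from 0.566 to 0.962).

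**Figure D3:**
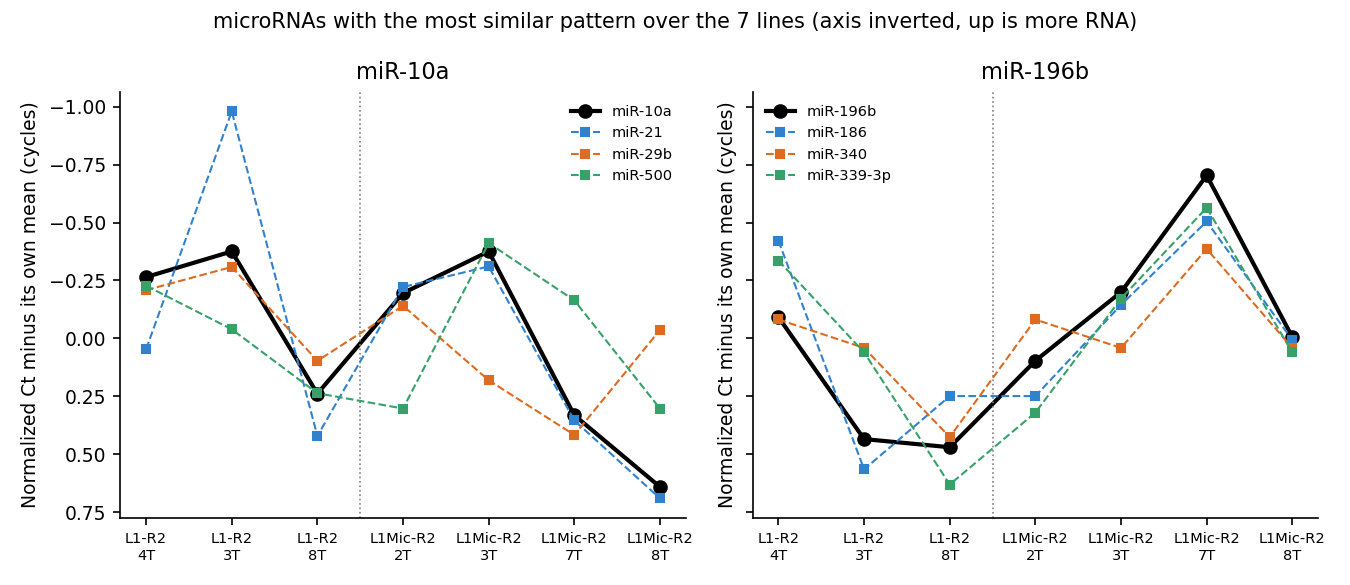
Normalized Ct minus its own mean over the 7 lines, in cycles and with the axis inverted, for miR-10a and miR-196b and for the 3 microRNAs closest to each. Lines only join the points of a microRNA. MiR-21 follows miR-10a with a mean distance of 0.18 cycles, and miR-186 follows miR-196b with 0.16.

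The other HOX-cluster microRNA on the card gave no signal, since both arms of miR-615 were Undetermined in all 7 lines. The relatives of miR-10 were each detected in all 7 lines. These 5 are miR-99a, miR-99b and miR-100, which have a seed in common, and miR-125a-5p and miR-125b, which share another. None of the 5 passed the adjusted threshold, and 1, miR-99b, had an unadjusted p under 0.05, as had 19.3% of all microRNAs tested. Normalized, miR-99b stood at 32.85 (4T), 32.41 (3T) and 32.41 (8T) against 31.78 (2T), 31.68 (3T), 32.09 (7T) and 31.94 (8T), so that the groups did not overlap, which held for 19.3% of all microRNAs tested. Its log2 difference was 0.68 (standard error 0.19, adjusted p = 0.104 from limma), but 0.31 (adjusted p = 0.632) for raw Ct. After quantile normalization the log2 differences of the 5 ran from 0.15 to 0.68 with a median of 0.36, against 0.06 over all 181 microRNAs tested. For raw Ct or relative to U6, 3 of the 5 were positive, relative to the average of microRNAs found in every line 4, and relative to RNU44 and RNU48 all 5. These scales move all microRNAs of a card alike, and on each of these 4 scales 4 of the 5 lay above the median of all microRNAs tested, against 5 after quantile normalization.

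Among other microRNAs known as promoters of metastasis, 6 of 7 listed were on the card and 5 were tested. MiR-9, miR-21, miR-103 and miR-155 were detected in all 7 lines and miR-107 in 4, while miR-373 was Undetermined in all. None passed the adjusted threshold (lowest adjusted p = 0.294 from limma, for miR-155), and their log2 differences ran from -0.30 to 1.43. Of the known suppressors of metastasis, 5 of 6 listed were on the card and 4 were tested. Of these 4, 0 were past the adjusted and 2 past the unadjusted threshold, against 4.97% and 19.3% of all microRNAs tested. MiR-146a, among these 4, had the same normalized value in every line, so that its test could not come out otherwise. MiR-126, which restrains the recruitment of blood vessels by metastatic cells, had a log2 difference of 3.44 (standard error 0.98, adjusted p = 0.104 from limma). MiR-146b-5p, an inhibitor of NF-kB signaling, had one of -1.14 (standard error 0.31, adjusted p = 0.0953). For both, the groups did not overlap, which held for 19.3% of all microRNAs tested. MiR-31, detected in all 7 lines, had a log2 difference of 0.29 (standard error 0.32, adjusted p = 0.675 from limma). MiR-146a had the lowest Ct of all microRNAs on every card, so that quantile normalization gave it 19.23 throughout. Unnormalized, it ran from 18.32 to 19.11 among L1-R2 lines and from 19.33 to 20.10 among L1Mic-R2 lines. The share of all microRNAs whose groups do not overlap in raw Ct was not computed. On that scale the median log2 difference of all microRNAs tested was -0.25. RNU44 and RNU48 averaged 24.69 and 19.83 in L1-R2 against 25.58 and 20.55 in L1Mic-R2, and U6 16.32 against 16.38. MiR-335 was detected in 3T of L1-R2 alone, at 36.51 raw cycles.

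**Figure D4:**
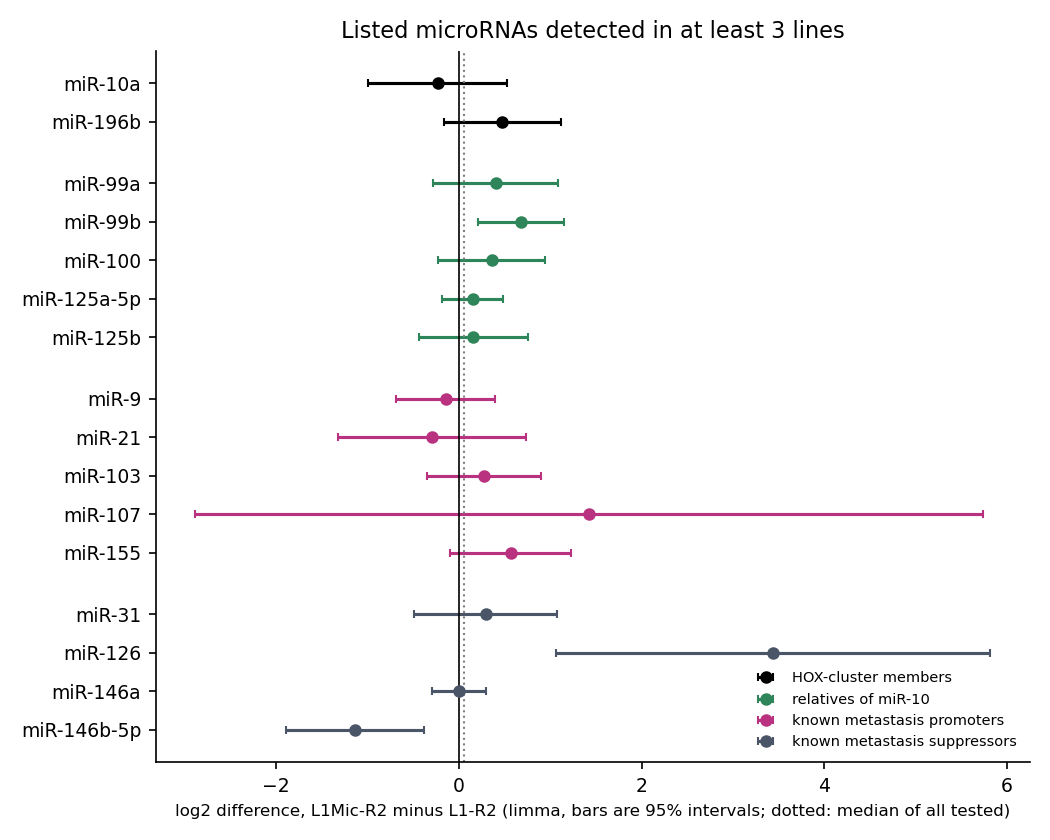
Log2 difference of L1Mic-R2 over L1-R2 from limma for the listed microRNAs that were detected in at least 3 lines, with 95% intervals (n = 3 and 4 lines). The dotted line marks the median of all 181 microRNAs tested (0.06). The intervals of miR-10a and miR-196b include 0, and those of miR-99b, miR-126 and miR-146b-5p do not, before adjustment.

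MiR-10a and miR-196b are identical in human and mouse, so that RNA of mouse lung cells left in a culture would be read by the same assays. The sequence of miR-10b was not matched, so that its assay is not known to be spared. Of 5 blood markers, 0 were detected in all lines, and miR-451 and miR-142-5p were Undetermined throughout. MiR-142-3p was detected in 4T (raw Ct 35.93) and 3T (36.03) of L1-R2 alone, the lines in which miR-10b was detected. The same held for miR-513-5p of the melanocyte and melanoma list (raw Ct 36.53 in 4T and 36.77 in 3T). Of all 377 microRNAs, 9 (2.39%) were detected in at least 2 L1-R2 lines and no L1Mic-R2 line. The part of miR-142-3p or miR-513-5p in the values of miR-10b was not tested. MiR-150 was detected in all 3 L1-R2 lines and 2 L1Mic-R2 lines (log2 difference -3.35, limma adjusted p = 0.220). Its groups did not overlap, which held for 19.3% of all microRNAs tested. MiR-223 was detected in 1 L1-R2 line and 3 L1Mic-R2 lines (log2 difference 3.07, limma adjusted p = 0.245). The signal summed over the blood list corresponded to a Ct of 33.06 to 34.36 in L1-R2 and of 34.48 to 35.60 in the 3 L1Mic-R2 lines that had any. Of 4 markers of fibroblasts and smooth muscle, miR-143, miR-145 and miR-214 were Undetermined in all 7 lines, and the list reached a summed Ct of 35.88 in 1 L1-R2 line and of 36.08 to 36.19 in 2 L1Mic-R2 lines. The single endothelial marker, miR-126, had a raw Ct of 32.46 to 35.06 in L1-R2 and of 28.71 to 32.41 in L1Mic-R2. It was lowest in L1Mic-R2 line 7T, the line in which miR-196b was lowest too, and its part in the values of the members was not tested. Of the 9 markers of melanocytes and melanoma on the card, 6 were detected in all 7 lines, miR-204 among them, whereas miR-211 was Undetermined in 2T and 8T of L1Mic-R2 and miR-507 was detected in no line. Of the 7 epithelial markers, miR-200b and miR-200c were detected in all 7 lines, with a lowest raw Ct of 30.10 for miR-200c in 3T of L1-R2, and miR-205 was Undetermined throughout. All 7 tested markers of the melanocyte and melanoma list had negative log2 differences, as had 83 of all 181 microRNAs tested. Of the 7, 1, miR-509-3-5p, was past the adjusted threshold (limma) and 4 past the unadjusted one, against 4.97% and 19.3% of all microRNAs tested. That call was lost relative to RNU44 and RNU48, with no detection filter, and without L1-R2 line 3T, L1-R2 line 8T or L1Mic-R2 line 2T, where 0 microRNAs passed the adjusted threshold (limma) and 28 to 37 the unadjusted one. It was lost too with the replicate block by labels or by file names, where 0 passed the adjusted threshold and 19 and 27 the unadjusted one. The signal summed over the melanocyte and melanoma list corresponded to a Ct of 24.36 to 25.03 in L1-R2 and of 25.25 to 26.08 in L1Mic-R2. All 4 tested epithelial markers had negative log2 differences too, with 0 past the adjusted and 1 past the unadjusted threshold (limma). Over all microRNAs tested these shares were 4.97% and 19.3%. The epithelial list had a summed Ct of 29.70 to 32.64 in L1-R2 against 31.70 to 34.65 in L1Mic-R2. The part of these lists in the values of the members was not tested. With RNU44 and RNU48 as the scale, 1 of the 7 melanocyte and melanoma markers turned positive.

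The direction of miR-10a and of miR-196b each changed under 1 of the normalizations. With the mean of RNU44 and RNU48 as reference, the log2 difference of miR-10a was 0.36 in place of -0.23, a scale on which the median of all microRNAs was 0.56. Relative to that median, miR-10a was at -0.20 for raw Ct and for each reference that is subtracted from a card, and miR-196b at 0.22. Both values had to repeat, because such a reference shifts all microRNAs of a card alike. On those scales, both values were below the standard error of the difference. For miR-10b the log2 difference ran from -2.50 to -1.57 over the 5 normalizations.

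**Figure D5:**
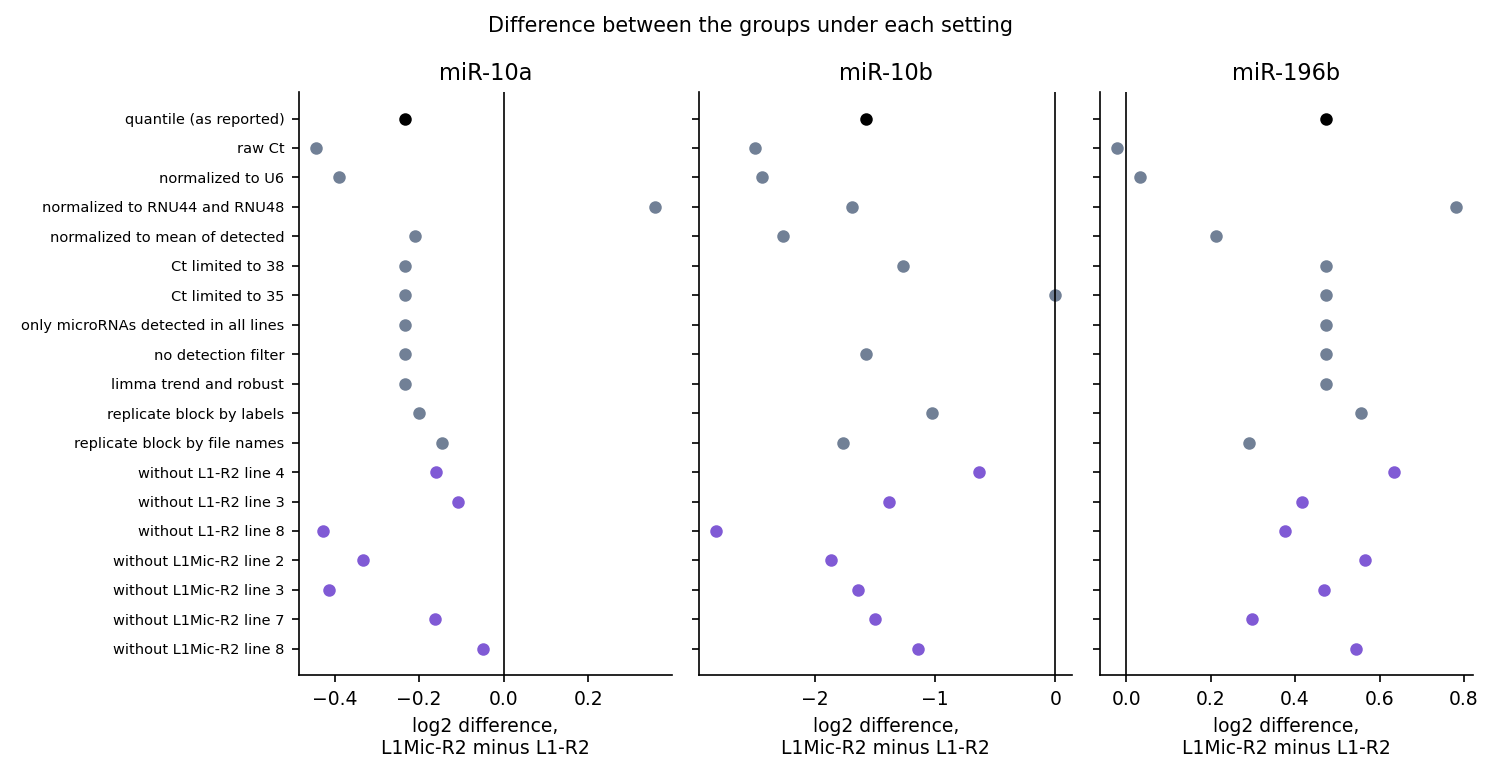
Log2 difference of L1Mic-R2 over L1-R2 for each member under each setting: the reported one in black, other settings in grey and fits without 1 line in purple. For miR-10a 17 of 18 alternatives are negative, for miR-196b 17 of 18 are positive, and miR-10b is at 0 when Ct is limited to 35 and negative under the 15 others. The Ct limits, the other filters and the trend and robust options left the values of miR-10a and miR-196b unchanged. Fits without 1 line share most of their lines, so that these counts do not measure how stable the signs are.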

How the data were processed

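MicroRNA was measured on TaqMan Human MicroRNA Array A cards, 1 per line. The deposited values are raw Ct, in cycles, which the authors imported with SDS RQ Manager at a threshold of 0.3. Labels that mention SYBR and the mammary fat pad differ from the methods of the paper, which were followed. Groups and line numbers follow the labels, although the file names exchange L1-R2 lines 3T and 4T.

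Quantile normalization of the 381 assays and the fit used limma 3.58.1 (R 4.3.3). The fit (lmFit, eBayes) on 40 minus Ct covered the 181 microRNAs with a raw Ct below 38 in at least 3 lines, with Benjamini-Hochberg adjustment over all of them. MiR-10b missed this filter and was compared by the exact two-sided permutation test of means. Distances between patterns were mean absolute differences of centered Ct among microRNAs detected in all lines, and the 3 smallest were named. The fit was tested on simulated data. Members, lists and tests were chosen with earlier results of these data known. Alternatives were raw Ct, other references, Ct limits of 38 and 35, other filters and fits, replicate blocks and the omission of each line. With 3 and 4 lines, each from 1 animal, the number of cards limits the precision.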

Additional observations from a re-analysis of the deposited data

How the results depend on the processing

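No alternative brought miR-10a or miR-196b past the adjusted threshold. MiR-10b had an adjusted p only without a detection filter and under the replicate blocks, and did not pass there. Elsewhere it had an unadjusted permutation p or no value, so that it could not pass. The log2 difference of miR-10a reversed to 0.36 with RNU44 and RNU48 and ran from -0.43 (without L1-R2 line 8T) to -0.05 (without L1Mic-R2 line 8T) when 1 line was left out. MiR-196b reversed to -0.022 for raw Ct and ran from 0.30 (without L1Mic-R2 line 7T) to 0.63, and miR-10b ran from -2.82 to -0.63, lowest without L1-R2 line 8T and closest to 0 without line 4T. The difference of miR-10a minus miR-10b reversed to 0.23 cycles with Ct limited to 35, which lies below every Ct of miR-10b. Under a replicate block by line number, in which 3T and 8T are shared by the groups (1 residual degree of freedom), the log2 differences were -0.20, -1.03 and 0.56 for miR-10a, miR-10b and miR-196b. Deviations of same-numbered lines correlated at -0.04 and -0.20 across microRNAs. With a single pair for each number, and 3T exchanged in the file names, this cannot tell whether the lines share more than a number. The block changed no call of a member. Of all microRNAs, 9 passed the adjusted threshold (limma), 14 with only those detected in all lines, 21 with trend and robust options, and 0 relative to RNU44 and RNU48, with no filter, and with the block by labels or file names (37, 36, 19 and 27 by unadjusted p). Without any 1 of the 7 lines, 0 to 4 passed (28 to 39 by unadjusted p). With that block by labels, the within-line differences between groups were -0.82, 0.76 and 1.58 cycles for miR-10a minus miR-10b, miR-10a minus miR-196b and miR-10b minus miR-196b. MiR-10b has no value among microRNAs detected in all lines or with the trend and robust options, since it missed the filter. The cause of these changes was not tested.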
